A study of Mus musculus with 2 samples.

Results

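The 31 genes described here are markers of brain tissues that border or face the hippocampus, out of 55536 genes in the deposited tables. They were taken by symbol from a fixed list: 10 genes of the thalamus, 7 of the choroid plexus, 4 of the ependyma, 3 of the striatum and 4 of the neocortex, with 3 genes (Synpo2, Grid2ip and Wnt9b) that were listed with the thalamic genes and have no single tissue assigned here. The list was drawn up with the difference between the libraries already known, so every ratio between libraries below describes these libraries and carries no test. Total RNA was sequenced from tissue labelled as a layer of hippocampus of male B6CASTF1/J mice, a cross of the strains C57BL/6J and CAST/EiJ, at 14 days of age. A single group was made of 2 libraries, numbered as biological replicates 1 and 2, and no treatment or genetic change is named in the labels. Each label names 3 males with their own animal numbers, and both carry the same donor identifier. Libraries were started from 300 ng of RNA with the ERCC set of synthetic control RNAs (spike-ins) added. Whether the 3 animals were pooled, and whether the tissues were dissected together, is not stated, so the spread between the libraries may be biological or technical.

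The hippocampus lies against the lateral ventricle, over the thalamus and beneath the neocortex, with the striatum further forward. The thalamus is built by transcription factors such as Gbx2, Shox2, Tcf7l2 and Lef1, which are scarce in most hippocampal neurons. The choroid plexus is the epithelium that makes cerebrospinal fluid, hangs in the ventricle along the edge of the hippocampus and secretes transthyretin, the product of Ttr. The ependyma is the ciliated lining of the same ventricle, and its cilia are switched on by Foxj1. Genes of the striatal and neocortical groups mark projection neurons of those regions, and several of them are also made by hippocampal neurons.

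Replicate 1 held 29144892 gene counts and replicate 2 held 31755578. A count of 0 allowed up to 0.103 and 0.0945 CPM (counts scaled to library size) in them. All 6 CA1, all 6 CA3 and all 6 dentate gyrus genes of short marker lists were detected. Detected means at least 1 TPM (transcripts scaled for gene length and to a fixed total per library) in both libraries. Their summed TPM was 227 and 261 for CA1 (replicate 1, then replicate 2), 119 and 110 for CA3 and 106 and 142 for the dentate gyrus. A list of 15 other neocortical genes was also detected in full, with a summed TPM of 405 and 466. Detection alone therefore does not tell these tissues apart. In these bulk libraries fewer cells of a type and less RNA per cell cannot be told apart.

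Of the 31 genes, 20 were detected by that criterion and 11 were not. Levels below are TPM, which can be set side by side between genes, and ratios are log2 ratios of scaled counts, replicate 2 over replicate 1, for the 28 genes with a mean count of at least 10. Gbx2, Kcnj13 and Tmem212 were too rare to give a ratio. The interval behind each ratio is an exact 95% binomial interval that covers counting error only. A gene past 1.5-fold (a log2 ratio of 0.58 in either direction) is called lower or higher. By that rule 15 of the 28 genes were lower in replicate 2, none was higher and 13 were within the fold. Among all 18322 genes with that count, 8.05% were lower and 2.85% were higher. At 2-fold, 11 members were lower and 0 higher, with 2.4% and 0.873% of all genes past it. The members were chosen from this contrast, so these counts are not set against those shares. The median log2 ratio was -0.82 over the 28 genes and 0.00 over all genes. The groups differed among themselves: the median was -1.28 for the thalamic genes, -1.73 for the 3 unassigned genes and -0.85 for the choroid plexus genes, against -0.10 for the ependymal, -0.06 for the striatal and 0.18 for the neocortical genes. When libraries were scaled to the spike-ins instead, the median of all genes moved to 0.11 and the share of called genes that were lower went from 73.9% to 58.2%, but the number of members lower in replicate 2 was again 15.

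**Figure D1:**
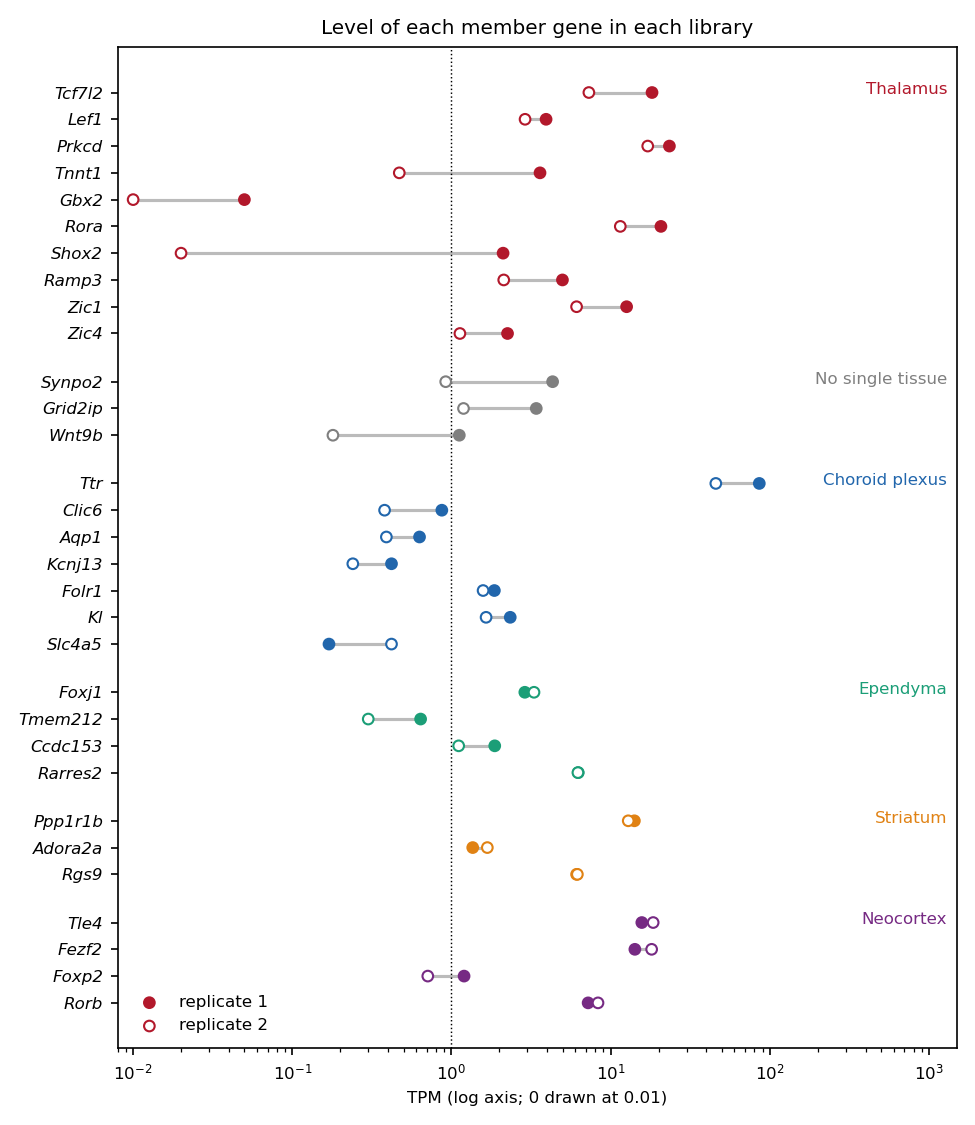
TPM of the 31 genes in replicate 1 (filled) and replicate 2 (open), grouped by tissue, on a log axis; the dotted line marks 1 TPM and a value of 0 is drawn at 0.01. Most thalamic and choroid plexus genes, and all 3 unassigned genes, have their filled circle to the right, while ependymal, striatal and neocortical pairs mostly lie close together.

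The starts of Shox2, Tnnt1 and Tcf7l2 are shown because these had the lowest ratios of the thalamic genes. RefSeq promoter windows on GRCm38.p6 (250 bases before and 50 after an annotated start) were at hand for 23 of the 31 genes, 31 windows in all. Capitals mark a TATA box (TATAAA on either strand) or a TCF/LEF site (CTTTGAA or CTTTGAT on either strand, the letters bound by the proteins of Tcf7l2 and Lef1). Each is written 5′ to 3′ on the strand of its gene. Shox2 lies at chr3:66981722-66982021 on the minus strand, Tnnt1 at chr7:4515926-4516225 on the minus strand and the first of the pair of Tcf7l2 windows at chr19:55741560-55741859 on the plus strand.
Shox2: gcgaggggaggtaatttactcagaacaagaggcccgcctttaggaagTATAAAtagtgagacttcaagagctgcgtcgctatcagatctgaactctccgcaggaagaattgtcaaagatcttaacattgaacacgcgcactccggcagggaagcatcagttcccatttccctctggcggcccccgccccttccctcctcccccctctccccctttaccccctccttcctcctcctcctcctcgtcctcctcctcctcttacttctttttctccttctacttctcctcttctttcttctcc
Tnnt1: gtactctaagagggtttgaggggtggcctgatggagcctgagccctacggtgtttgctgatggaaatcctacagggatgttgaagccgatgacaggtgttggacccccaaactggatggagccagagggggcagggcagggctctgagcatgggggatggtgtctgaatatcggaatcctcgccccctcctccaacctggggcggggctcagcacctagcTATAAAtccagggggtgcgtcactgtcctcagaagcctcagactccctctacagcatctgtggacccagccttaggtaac
Tcf7l2: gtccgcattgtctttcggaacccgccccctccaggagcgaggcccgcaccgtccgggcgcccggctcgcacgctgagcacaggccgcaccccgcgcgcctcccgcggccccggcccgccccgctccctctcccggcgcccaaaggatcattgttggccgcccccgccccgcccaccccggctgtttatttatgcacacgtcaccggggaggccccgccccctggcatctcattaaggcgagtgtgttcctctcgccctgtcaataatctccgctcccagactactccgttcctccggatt
The TATA box of Tnnt1 starts at base 221 of its window, just before the start site that follows base 250, whereas that of Shox2 starts at base 48, far from it. The Tcf7l2 window holds neither motif and has 70% G and C. The TATA letters occurred in 10 of the 31 member windows and in 13.6% of 32851 windows of all genes, and a TCF/LEF site in 1 of 31 (Zic4) and 8.65%. Both were counted at any position and on either strand. The TATA letters of members began anywhere from base 7 (Prkcd) to base 222 (Kcnj13), so the count is not one of TATA boxes placed just before a start. The letters AGGTCA, which proteins such as those of Rora and Rorb bind, were in none of the 31 windows and in 16.3% of all windows. The homeodomain letters TAATTA were in 1 window, that of Synpo2, and in 5.29% of all. A match is a stretch of letters and does not show that a protein binds there.

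Transcription factors of the thalamus differed widely. Shox2 (ENSMUSG00000027833.16, chromosome 3, 66971727 to 66981771, minus strand, mm10), a homeobox factor of thalamic neurons, had 88 counts in replicate 1 and 1 count in replicate 2, or 2.11 and 0.02 TPM. Its log2 ratio of -6.03 had a counting interval from -11.92 to -4.09. The gene was therefore plainly present in the first library and at the level of a single count in the second. From the lowest ratio up, Shox2 ranked 9 among all 18322 genes with a ratio. It ranked 1 among the 17183 well-assigned genes, those with a deposited posterior SD of at most 5% of the count. It overlaps Rsrc1 on the other strand by 382 bases, and Rsrc1 had 713 and 792 counts.

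Tcf7l2 (ENSMUSG00000024985.19, chromosome 19, 55741820 to 55933654, plus strand), a transcription factor of the Wnt pathway that is made throughout the thalamus and also in differentiating oligodendrocytes, had 950 and 417 counts, or 18.2 and 7.30 TPM. That is 2.52-fold lower in replicate 2, a log2 ratio of -1.33 with an interval from -1.5 to -1.16. Lef1, its relative in the same pathway, had 250 and 202 counts and 3.93 and 2.90 TPM. The log2 ratio of Lef1 was -0.45, inside the fold, so the pair of TCF/LEF genes on the list did not move by the same amount. Rora, a nuclear receptor of thalamic relay neurons and Purkinje cells, had 2611 and 1516 counts, or 20.7 and 11.5 TPM, and a log2 ratio of -0.93 (interval -1.02 to -0.84). Gbx2, a homeobox factor of the embryonic thalamus, had 2 counts in replicate 1 and 0 in replicate 2.

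Zic1 and Zic4, zinc-finger factors of the dorsal midline and of medial thalamic nuclei, sit head to head on chromosome 9 and their annotated bodies share 3398 bases (91362413 to 91365810). Zic1 (ENSMUSG00000032368.14) had 867 and 395 counts, or 12.6 and 6.11 TPM, and Zic4 (ENSMUSG00000036972.14) had 120 and 71 counts, or 2.25 and 1.13 TPM. Both were lower, with log2 ratios of -1.28 and -0.90, and the intervals (-1.45 to -1.10 and -1.35 to -0.47) overlap. The deposited posterior SD of the count was 0 for both genes in both libraries, so no reads are recorded as split between them. Whether the counting used the strand is not stated, so the strand of reads in the shared stretch may not have been used. Their RefSeq start windows, printed because these neighbours were both lower, are 2703 bases apart. The Zic4 window lies inside the annotated Zic4 body, which begins at 91362413, so it is not at the first annotated start of the gene. The windows are Zic1 at chr9:91365719-91366018 on the minus strand and Zic4 at chr9:91368722-91369021 on the plus strand.
Zic1: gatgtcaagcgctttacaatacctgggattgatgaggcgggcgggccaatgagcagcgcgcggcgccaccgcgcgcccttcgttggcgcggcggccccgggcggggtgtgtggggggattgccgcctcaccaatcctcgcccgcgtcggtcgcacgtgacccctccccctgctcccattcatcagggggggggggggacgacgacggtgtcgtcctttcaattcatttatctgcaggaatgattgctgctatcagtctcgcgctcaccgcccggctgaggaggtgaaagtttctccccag
Zic4: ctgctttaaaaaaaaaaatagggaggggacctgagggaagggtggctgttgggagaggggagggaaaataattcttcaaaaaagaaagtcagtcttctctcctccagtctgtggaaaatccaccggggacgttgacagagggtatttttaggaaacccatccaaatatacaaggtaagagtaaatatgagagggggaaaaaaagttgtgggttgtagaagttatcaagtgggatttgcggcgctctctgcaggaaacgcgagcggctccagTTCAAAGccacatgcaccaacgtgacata
The single TCF/LEF match among the member windows starts at base 272 of the Zic4 window, just after the start site of that window. The Zic1 window has 65.3% G and C and the Zic4 window 46%.

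The other thalamic genes encode signalling and contractile proteins. Tnnt1 (ENSMUSG00000064179.13, chromosome 7, 4504570 to 4516382), the slow skeletal troponin T that is also made in thalamic neurons, had 57 and 9 counts, or 3.60 and 0.47 TPM. Its log2 ratio was -2.74, with an interval from -4.01 to -1.78. Counted from the lowest ratio, Tnnt1 ranked 26 among all genes with a ratio and 7 among the well-assigned genes. Ramp3, a subunit that directs calcitonin-family receptors to the cell surface, had 115 and 52 counts, or 4.98 and 2.13 TPM, and a log2 ratio of -1.28. Prkcd, a protein kinase C of thalamic relay neurons, had 987 and 805 counts, or 23.4 and 17.1 TPM, the highest level of the group. Its log2 ratio of -0.44 lay inside the fold, and replicate 2 was still the lower library. All 9 thalamic genes with a ratio were lower in value in replicate 2, 7 of them past 1.5-fold, and their TPM summed to 91.8 and 48.6 over the group of 10. By mean TPM ± SD (n = 2) the order ran from Prkcd (20.2 ± 4.50) through Rora (16.1 ± 6.55), Tcf7l2 (12.7 ± 7.69) and Zic1 (9.35 ± 4.57) to Gbx2 (0.025 ± 0.0354). Neighbours among the first 4 of that order lay within an SD of each other.

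The 3 genes with no single tissue were all lower past 1.5-fold. Synpo2, which encodes an actin-binding protein best known from muscle, had 449 and 149 counts, or 4.32 and 0.92 TPM, and a log2 ratio of -1.73. Grid2ip, the scaffold that binds a glutamate receptor of Purkinje cells, had 245 and 81 counts, or 3.41 and 1.19 TPM, and also a log2 ratio of -1.73. The intervals were from -2.01 to -1.46 for Synpo2 and from -2.12 to -1.37 for Grid2ip. Wnt9b (chromosome 11, 103727364 to 103749821, minus strand), a secreted Wnt ligand, had 100 and 17 counts, or 1.12 and 0.18 TPM. At -2.67 (interval -3.54 to -1.95) it ranked 27 from the lowest among all genes with a ratio and 8 among the well-assigned genes, next to Tnnt1. Of 9 Purkinje cell and other cerebellar genes, checked because of Grid2ip, only 3 were detected. The 6 with a ratio had a median log2 ratio of 0.12 with 1 lower. Most of the summed TPM of that list, 65.7 and 68, came from Itpr1 at 59 and 59.6, so the median says little about cerebellar tissue.

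**Figure D2:**
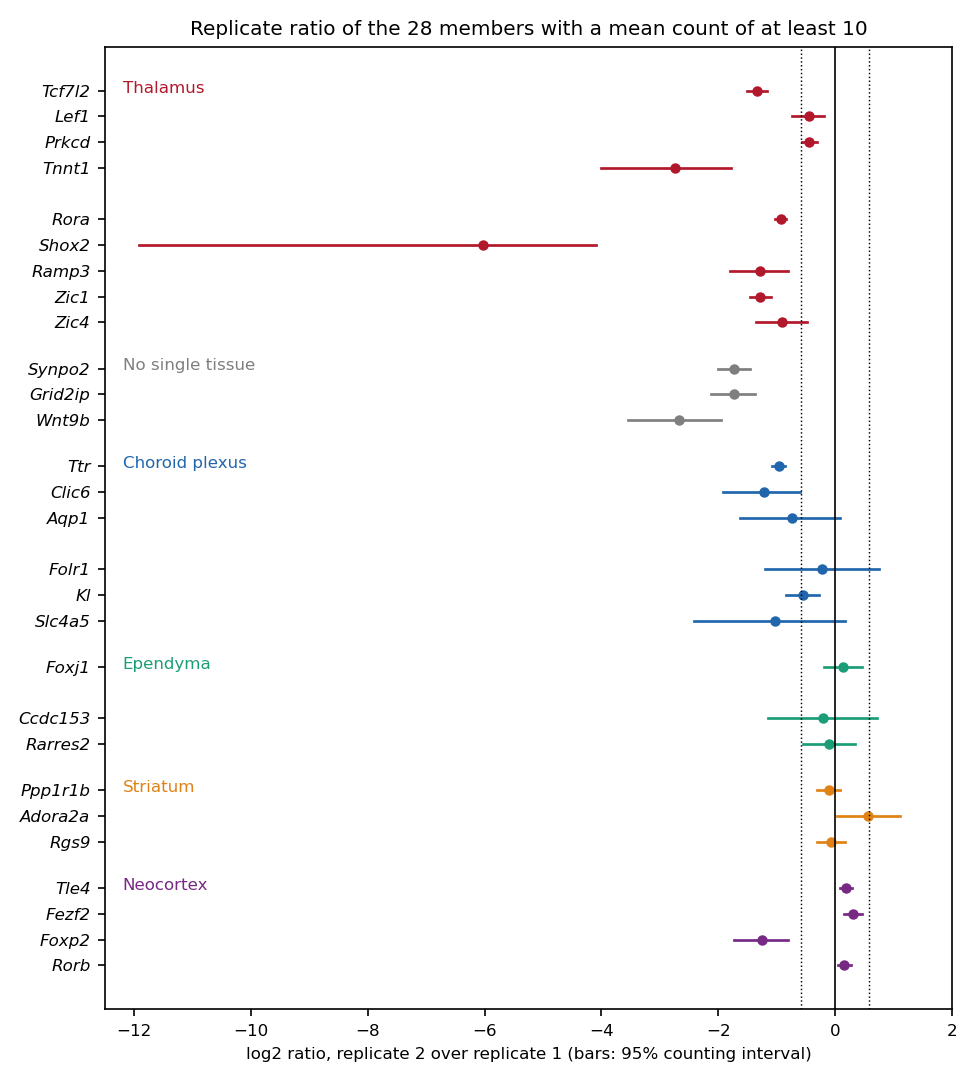
Log2 ratio of replicate 2 over replicate 1 for the 28 genes with a mean count of at least 10 (points) with exact 95% binomial intervals for counting error (bars); dotted lines mark 1.5-fold and gaps in a group are genes too rare for a ratio. Shox2 at -6.03 and Tnnt1 at -2.74 lie furthest left, and the striatal genes lie between -0.10 and 0.57.

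Choroid plexus genes were led by one transcript. Ttr (ENSMUSG00000061808.4, chromosome 18, 20665280 to 20674321), the carrier of thyroid hormone and retinol-binding protein, had 1884 and 1070 counts, or 85.9 and 45.8 TPM, above 93.2% of protein-coding genes by its mean. Its log2 ratio was -0.96 (interval -1.07 to -0.85), or 1.95-fold lower. Of the TPM summed over the 7 choroid plexus genes, 92.2 and 50.5, most came from Ttr.

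The transporters and channels of this epithelium were far rarer. Kl, which encodes the fibroblast growth factor co-receptor klotho, had 238 and 179 counts, or 2.34 and 1.65 TPM, and at -0.55 fell just short of the fold. Folr1, the folate receptor that carries folate into cerebrospinal fluid, had 20 and 19 counts and 1.86 and 1.58 TPM, a log2 ratio of -0.22. Clic6, a relative of the intracellular chloride channels, had 64 and 30 counts, or 0.87 and 0.38 TPM, and was lower at -1.22 (interval -1.91 to -0.59). Both libraries therefore held few reads of these genes apart from Ttr and Kl, and the intervals are wide. Aqp1, the water channel of the apical membrane, had 32 and 21 counts, or 0.63 and 0.39 TPM, and a ratio of -0.74 with an interval that reached 0.09. Kcnj13, a potassium channel, had 10 and 6 counts. Slc4a5, a sodium bicarbonate cotransporter, had 17 and 9 counts, a log2 ratio of -1.03 with an interval from -2.41 to 0.18. Its TPM ran the other way, 0.17 and 0.42. The 437-base transcript Slc4a5-204 held 0% of the gene's TPM in replicate 1 and 85.5% in replicate 2. The kallisto-layout tables gave that transcript 0% in both libraries. Of the 6 choroid plexus genes with a ratio 4 were lower past the fold, 2 of them (Aqp1 and Slc4a5) with intervals that include 0.

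Ependymal genes differed little. Foxj1, the master regulator of motile cilia, had 147 and 179 counts, or 2.89 and 3.30 TPM, a log2 ratio of 0.14. Rarres2, which encodes the secreted chemoattractant chemerin, had 87 and 90 counts, or 6.26 and 6.23 TPM, the highest level of the group. Ccdc153, a gene of ciliated cells, had 22 and 21 counts and a log2 ratio of -0.21. Its TPM was 1.87 and 1.11 in the gene tables and 10.4 and 6.42 in the kallisto-layout tables, so its level depends on the table. Tmem212, another gene of ciliated ependymal cells, had 8 and 4 counts. None of the 3 ependymal genes with a ratio passed the fold, and the intervals of all 3 include 0. As a ratio of TPM, Ccdc153 was lower past it, at -0.75.

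Of the 3 striatal genes, Ppp1r1b and Rgs9 were at nearly equal levels in both libraries and Adora2a had more counts in replicate 2. Ppp1r1b, the inhibitor of protein phosphatase 1 that dopamine signalling controls, had 435 and 448 counts, or 14.1 and 12.9 TPM, a log2 ratio of -0.10. Rgs9, which speeds the shut-off of G protein signals, had 280 and 296 counts, or 6.11 and 6.18 TPM, a ratio of -0.06. Adora2a, the adenosine receptor of indirect-pathway neurons, had 48 and 79 counts, or 1.36 and 1.68 TPM. Its TPM in the kallisto-layout tables ran the other way, 3.24 and 2.42. At 0.57 (interval 0.04 to 1.12) Adora2a had the highest ratio of the 28 genes and lay just inside the fold, past which it came under spike-in scaling (0.68), total counts (0.59) and kallisto-layout counts (0.60). The order by mean TPM ± SD was Ppp1r1b (13.5 ± 0.849), Rgs9 (6.14 ± 0.0495) and Adora2a (1.52 ± 0.226), and these 3 levels are further apart than their SDs.

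Of the neocortical genes 3 were slightly more abundant in replicate 2. Tle4, a corepressor of deep-layer neurons, had 1377 and 1741 counts, or 15.7 and 18.5 TPM, a log2 ratio of 0.19 (interval 0.09 to 0.30). Fezf2, the factor that specifies corticospinal neurons, had 608 and 831 counts, or 14.2 and 18.1 TPM, a ratio of 0.31. Rorb, a nuclear receptor of input-layer neurons, had 1203 and 1489 counts, or 7.22 and 8.33 TPM, a ratio of 0.16. None of these 3 reached 1.5-fold, and all had intervals above 0. Foxp2, a forkhead factor of deep-layer cortical, striatal and thalamic neurons, went the other way with 132 and 61 counts, or 1.20 and 0.71 TPM. Its log2 ratio of -1.25 (interval -1.72 to -0.81) was the only one of the 10 ependymal, striatal and neocortical ratios past the fold.

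**Figure D3:**
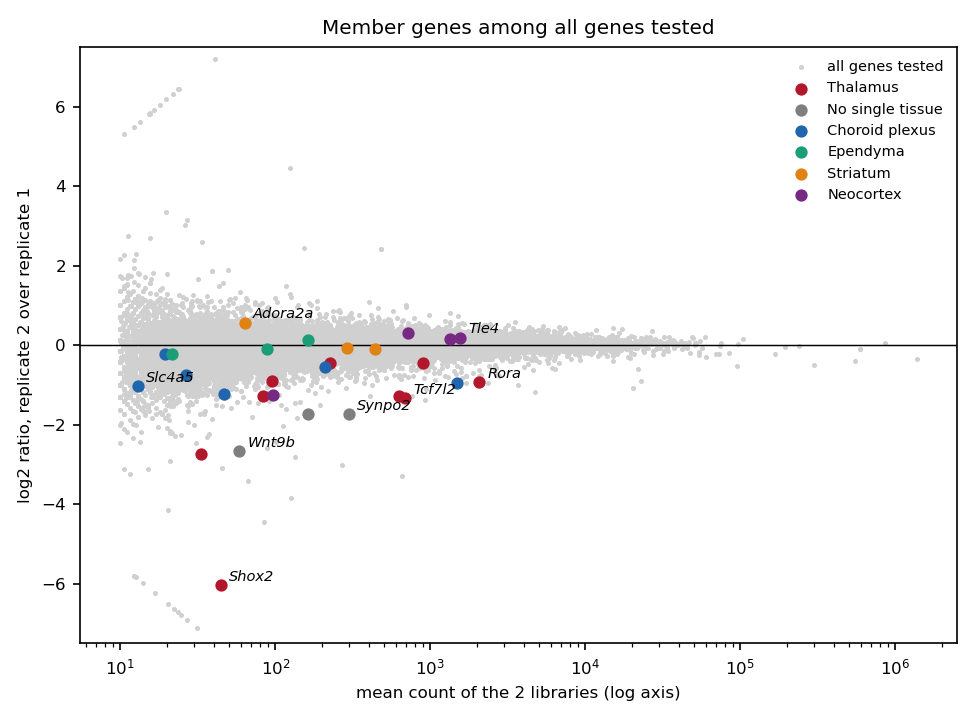
Log2 ratio of replicate 2 over replicate 1 against mean count (log axis) for the 18322 genes with a mean count of at least 10 (grey) with the 28 members in the colour of their group. Shox2 stands below nearly all genes of similar count, Tcf7l2 and Rora lie at the lower edge of theirs, and Tle4 lies near 0.

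Further genes of each tissue, from lists made with earlier results of these data known, gave the members' surroundings. Of 10 other thalamic and habenular genes with a ratio, 1 was lower (Rgs16, a regulator of G protein signals, with 167 and 96 counts) and none higher, with a median of -0.14. Calb2, the calcium-binding protein calretinin, and Lhx2, a LIM homeobox factor, had the highest levels of that list, at 46.9 and 41.8 TPM and at 40.5 and 48.1 TPM. Calb2 is also on the immature neuron list used here, so its level cannot be read as thalamic RNA alone. Among the 14 genes of the thalamic and habenular list, 10 were detected. Of 12 other choroid plexus genes 3 were lower, with a median of -0.42. These were Otx2 (32 and 8 counts), the homeobox factor that specifies the plexus, Enpp2 (3173 and 2115 counts), the secreted enzyme autotaxin that oligodendrocytes also make, and Trpv4 (41 and 21 counts), a calcium-permeable channel. Of 13 other ependymal genes 2 were lower with a median of -0.36, of 13 other striatal genes 2 were lower with a median of 0.14 and of 15 other neocortical genes 0 were lower with a median of 0.10. The striatal pair included Six3, a homeobox factor, with 35 and 8 counts.

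Markers of myelinating oligodendrocytes were also lower in replicate 2. All 10 were lower past 1.5-fold. Their median was -1.06 and their TPM summed to 1858 and 989. Mbp, the myelin basic protein, had 813 and 439 TPM. Of 7 newly formed oligodendrocyte genes 1 was lower (median -0.36), of 6 precursor genes 0 (median 0.02) and of 5 red blood cell genes 1 (median -0.51, summed TPM 732 and 561). No gene of these 4 lists was at 0 in either library, and Tcf7l2 belongs to the oligodendrocyte lineage as well as to the thalamus. The part of these cells in the members' ratios was not tested. Dentate gyrus and immature neuron genes had medians of 0.39 and 0.38, astrocyte genes -0.03, microglial genes 0.12 and meningeal genes -0.14.

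**Figure D4:**
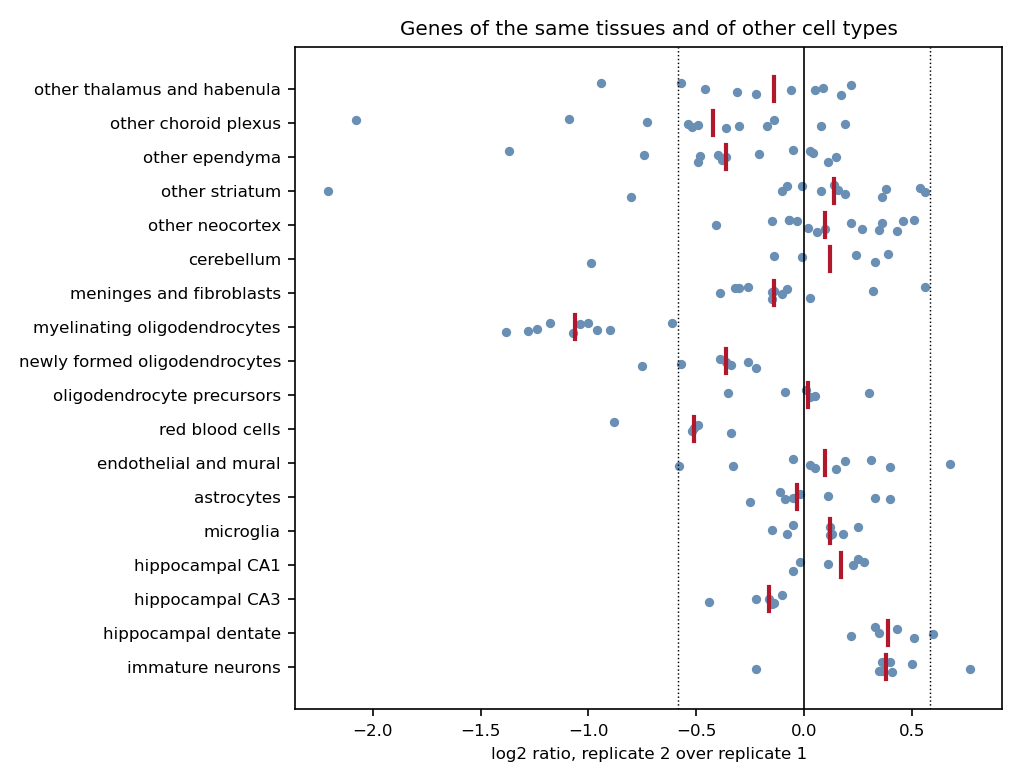
Log2 ratio of replicate 2 over replicate 1 for genes of 18 further lists with a mean count of at least 10 (points), with the median of each list (red bar) and 1.5-fold (dotted). All 10 myelinating oligodendrocyte genes lie left of the lower line, and most genes of the other lists lie within the fold.

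Chromosomal neighbours of the members mostly had ratios near 0. The nearest genes with enough counts on each side gave 60 neighbours that are not members themselves, with a median log2 ratio of 0.03, 2 of them lower and 2 higher. For the 15 members that were lower there were 28 such neighbours with a median of 0.00. The lower one of these was Wnt3, another Wnt ligand, beside Wnt9b on chromosome 11, with 74 and 49 counts (-0.73). The higher one was Mlf1, beside Shox2, with 9 and 22 counts (1.10). For 14 members a gene on the other strand overlaps the annotated body, and the deposited posterior SD of the count was 0 for all 31 members in both libraries.

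Transcript tables showed which forms of the genes were present. A mean count of 50 or more was reached by 21 members. Of these, 18 have more than 1 annotated transcript, and in 11 of those a single transcript held over 50% of the gene's TPM. The same transcript led in the kallisto-layout tables for 16 of the 18, the exceptions being Ramp3 and Foxp2, and in both libraries for 16, the exceptions being Zic1 and Synpo2. Tle4-201 held 97.3% ± 0.785 of its gene, Rorb-203 86.6% ± 0.368 and Fezf2-201 73.1% ± 2.69 (SD, n = 2). These 3 neocortical genes were each made almost wholly or mostly as a single form in both libraries. Foxp2, the remaining neocortical member, has 20 annotated transcripts. Foxp2-207 led it with 50.6% ± 6.48, but Foxp2-220 led with 46% in the kallisto-layout tables.

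Several thalamic factors were more divided than Tle4, Rorb and Fezf2, which have only 3, 5 and 3 annotated transcripts. Tcf7l2 has 22 annotated transcripts, of which Tcf7l2-209 led with 41.4% and 32.5% of the TPM. Rora-201, of 10878 bases, held 50.1% and 46.6%, with Rora-202 at 26.1% and 37.4%. The Zic1 transcripts Zic1-202 and Zic1-201 changed places, at 37.1% and 46.3% for the first and 42.7% and 30.6% for the second. For Lef1 the leading Lef1-201 had 47.0% and 57.2%, while Lef1-204 had 36.4% and 0% and Lef1-202 0% and 30.6%. Both are coding forms of similar length, 3357 and 3398 bases, and no uncertainty per transcript was used here. In the RSEM-layout tables retained-intron forms took 38.3% and 57.9% of Zic4, 35.6% and 28.3% of Prkcd and 35.7% and 24% of Ppp1r1b. The share of Ppp1r1b was that of Ppp1r1b-202, to which the kallisto-layout tables gave 0% in both libraries. For Zic4 the retained-intron form Zic4-211 held 28.7% and 39.5% in the RSEM layout but 28.3% and 24.8% in the kallisto layout. These shares therefore depend on the table. In total RNA such forms can include unspliced precursor.

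**Figure D5:**
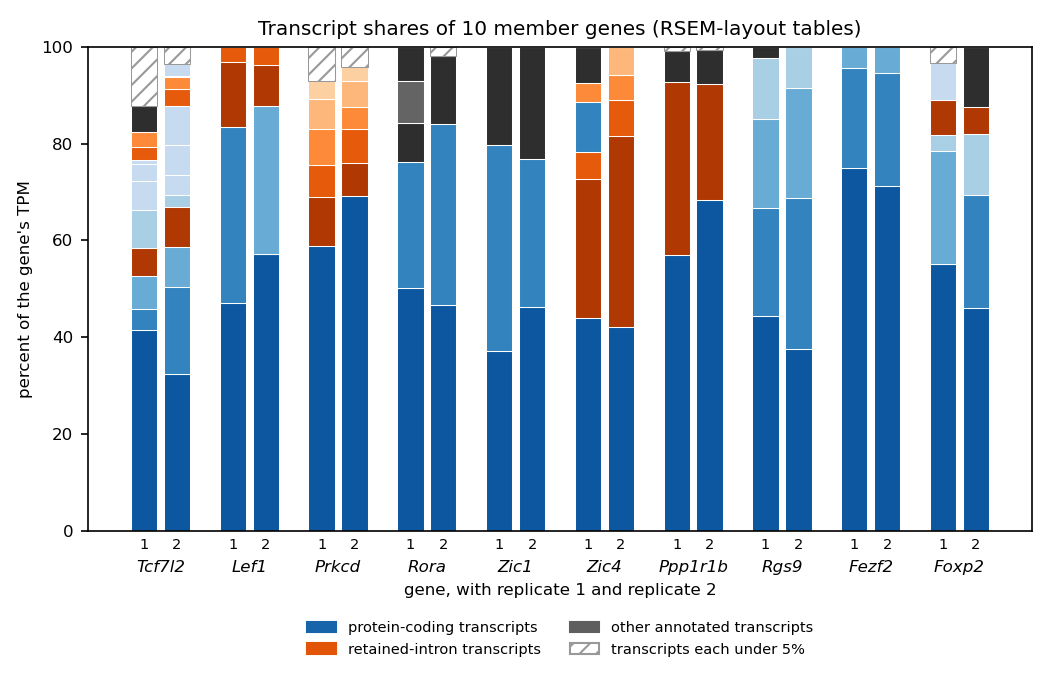
Share of each gene's TPM (percent) held by its transcripts in replicate 1 and replicate 2 for 10 members, by transcript class: protein-coding (blue), retained intron (orange), other (grey to black) and transcripts each under 5% (hatched). Shares are from the RSEM-layout tables. Fezf2 is held mostly by a single form, whereas Tcf7l2 is spread over many and 38.3% and 57.9% of Zic4 is assigned to retained-intron forms.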

How the data were processed

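Total RNA libraries of 2 biological replicates were compared. Gene values were expected counts and TPM as deposited by the authors, with a posterior SD of the count per gene, per the file headers. Transcript values were expected counts, TPM and the percent of the gene's TPM from tables deposited in RSEM layout, and estimated counts and TPM from tables deposited in kallisto layout. The build was mm10 per the labels and the annotation GENCODE M21 per the notes deposited with the tables; aligner and quantifier settings are not stated there. Entries with only a number (2.68e-05% and 9.45e-06% of counts in replicates 1 and 2) and the spike-ins did not enter gene totals.

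Log2 ratios used counts scaled by TMM factors (trimmed mean of log ratios; edgeR 4.0.16 in R 4.3.3), a prior count of 0.5 and a minimum mean count of 10, with exact Clopper-Pearson 95% intervals. Reads are not independent molecules, so intervals and the limit of 3 counts for a count of 0 cover counting error only. Size factors from DESeq2 1.42.0, spike-in and total scaling, other filters, prior counts and tables were alternatives. The ratio calculation was tested on simulated data. With 1 group and 2 libraries no p-value was computed. Promoter windows came from RefSeq. Other steps used Python 3.11.15, numpy 2.4.6, pandas 2.3.3, scipy 1.17.1 and matplotlib 3.10.9.

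The members and all gene lists were chosen with earlier results of these data known. All 31 members are named. From other lists, genes could be named that were among the 3 highest by mean TPM, past 2-fold between replicates with a mean count of at least 20, or at 0 in both libraries. Rgs16, Rsrc1, Wnt3 and Mlf1 were named after their values were seen.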

Additional observations from a re-analysis of the deposited data

How the results depend on the processing

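The number of members lower past 1.5-fold was 15 under size factors from DESeq2, spike-in scaling, total-count scaling, kallisto-layout counts and a prior count of 5. It was also 15 under a ratio of TPM, an alternative chosen after seeing the data, but with Ccdc153 (-0.75) in place of Slc4a5. It was 10 of the 21 genes left by a minimum mean count of 50, and 18 of all 31 with no filter. At 2-fold it was 11 of 28, the same 28 as for the reported 15, and 2.4% of all genes were lower past that fold. The share of all genes past 1.5-fold is not given for the other filters, so the 10 and the 18 have no such reference. The number higher, 0 as reported, was 1 under spike-in scaling, total counts and kallisto-layout counts (Adora2a) and 1 under the ratio of TPM (Slc4a5, reversed at 1.26). The thalamic median of -1.28 became -0.93 with a mean count of at least 50, which leaves out Tnnt1 and Shox2, and -1.04 under the ratio of TPM. The median of the 3 unassigned genes became -2.22 under the ratio of TPM, and the neocortical median 0.29 under spike-in scaling. The genes of the further lists that were higher numbered 3, or 9 under spike-in scaling. The ependymal and striatal medians, within 0.10 of 0, turned to 0.02 and 0.05 under spike-in scaling. Of 217 values for single members under an alternative, 209 stayed within the counting interval of the reported value, 7 moved out of it and 1 reversed. The 217 include values under other filters on the mean count, which cannot change the ratio of a single gene. Those values could only stay, so the 209 overstate how far the ratios were tried. Values inside the interval could still cross 0: under spike-in scaling Rarres2 went to 0.02, Ppp1r1b to 0.01 and Rgs9 to 0.05, and Rgs9 went to 0.02 under the ratio of TPM. Without replicate 1, 20 members were detected, and without replicate 2, 25. No paired analysis was possible because there is a single group.

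Depth limits the rare members: Gbx2, Kcnj13 and Tmem212 had too few counts for a ratio, and the intervals of Aqp1, Slc4a5, Folr1 and Ccdc153 include 0. The ratios compare these libraries, and with 2 of them no spread within a condition beyond this difference can be given.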
